A study of Mus musculus with 8 samples.

Results

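Genes of voltage-gated sodium channels, voltage-gated calcium channels, HCN pacemaker channels and TRP channels were examined in RNA of sorted cochlear hair cells. Members were all protein-coding genes whose symbol matched the families Scn, Cacna, Cacnb, Cacng, Hcn, Trpa, Trpc, Trpm and Trpv, without Cacna1d and Cacnb2, which gave 59 of the 25343 genes of the deposited table. Of these, 44 reached 10 normalized counts in 4 or more of the 8 libraries and were compared between genotypes, as were 18203 genes in all. A normalized count here is a gene's read count divided by the authors' size factor for that library. The symbol pattern also took in Trpc4ap, which encodes a protein associated with a TRP channel and not a channel, and Trpc5os, a transcript opposite to Trpc5.

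The study compared 4 libraries of wild-type (WT) mice with 4 libraries of mice carrying a knockout (KO) of Ndp, which encodes norrin, a secreted ligand of frizzled receptors. Both groups had a mixed C57BL/6 and 129 background and were taken at postnatal days 4 to 6. Each library came from 12 to 20 pooled cochlear sensory epithelia, from which cells with Atoh1-GFP, a reporter that marks hair cells, were sorted in both genotypes. Picogram amounts of RNA were amplified as full-length cDNA, and nothing in the labels links pools to litters. The p-values therefore reflect only how much these libraries varied, which may be technical.

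Voltage-gated sodium and calcium channels are built around 1 large pore-forming alpha subunit, whose surface level and gating are set by smaller auxiliary subunits. In cochlear hair cells the calcium channel of the ribbon synapse is formed around the product of Cacna1d with the beta subunit of Cacnb2, and immature hair cells fire calcium action potentials that sodium current can sharpen. HCN channels open on hyperpolarization and pass a mixed cation current, while TRP channels are a broad family of cation channels gated by lipids, calcium, temperature or osmotic stress.

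The libraries held 35077950 to 48329827 reads, and 3 reads, the limit that a count of 0 allows, were worth 2.34 to 3.49 normalized counts. Ndp had 174, 90.4, 114 and 206 normalized counts in wild-type replicates 1 to 4 and 10.5, 22.6, 66.8 and 45.1 in knockout replicates 1 to 4, so every knockout library was below every wild-type library and none was at 0. The log2 difference was -2.2 ± 0.56 (SE, limma; adjusted p = 0.895). All 8 listed hair cell markers were measured in every library, with summed levels of 390057 to 448650 in wild type and 412185 to 467894 in the knockout. Supporting cell markers were abundant as well, at 171397 to 360098 and 215264 to 295453, so transcripts of that cell type were measured beside those of hair cells. In such bulk RNA, fewer cells of a type and less RNA per cell cannot be told apart.

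Members with high levels per kb of coding length were auxiliary subunits and TRP genes, not those sodium or calcium channel pores that the rule kept. Over all 8 libraries the level of Scn3b, a sodium channel beta subunit, averaged 5522 normalized counts per kb, and that of Cacng5, of the gamma and TARP family, 3050.0. Trpc4ap lay between them at 3918. Lower levels were found for the calcium channel beta subunit Cacnb3 (1088), the osmotically sensitive channel Trpv4 (821), Trpm3 (604), Trpc1 (590.2) and Trpm4 (553). The highest sodium channel pore gene on this scale, Scn8a, reached 62.1, and the highest calcium channel pore gene among the members, Cacna1a, 12.8. The calcium channel pore gene Cacna1d was outside this ranking by rule, and its level per kb was not calculated. Mean normalized counts of Cacna1d were 4469 (wild type) and 4819.8 (knockout), where those of Cacna1a were 93.6 and 88.1. The ranking therefore does not show that calcium channel pore transcripts were scarce. The order within families depended on the length used: per kb of all annotated exons Trpm7 (190.1) was above Trpm3 (128), and Scn11a (54.4) above Scn8a (23.5).

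**Figure D1:**
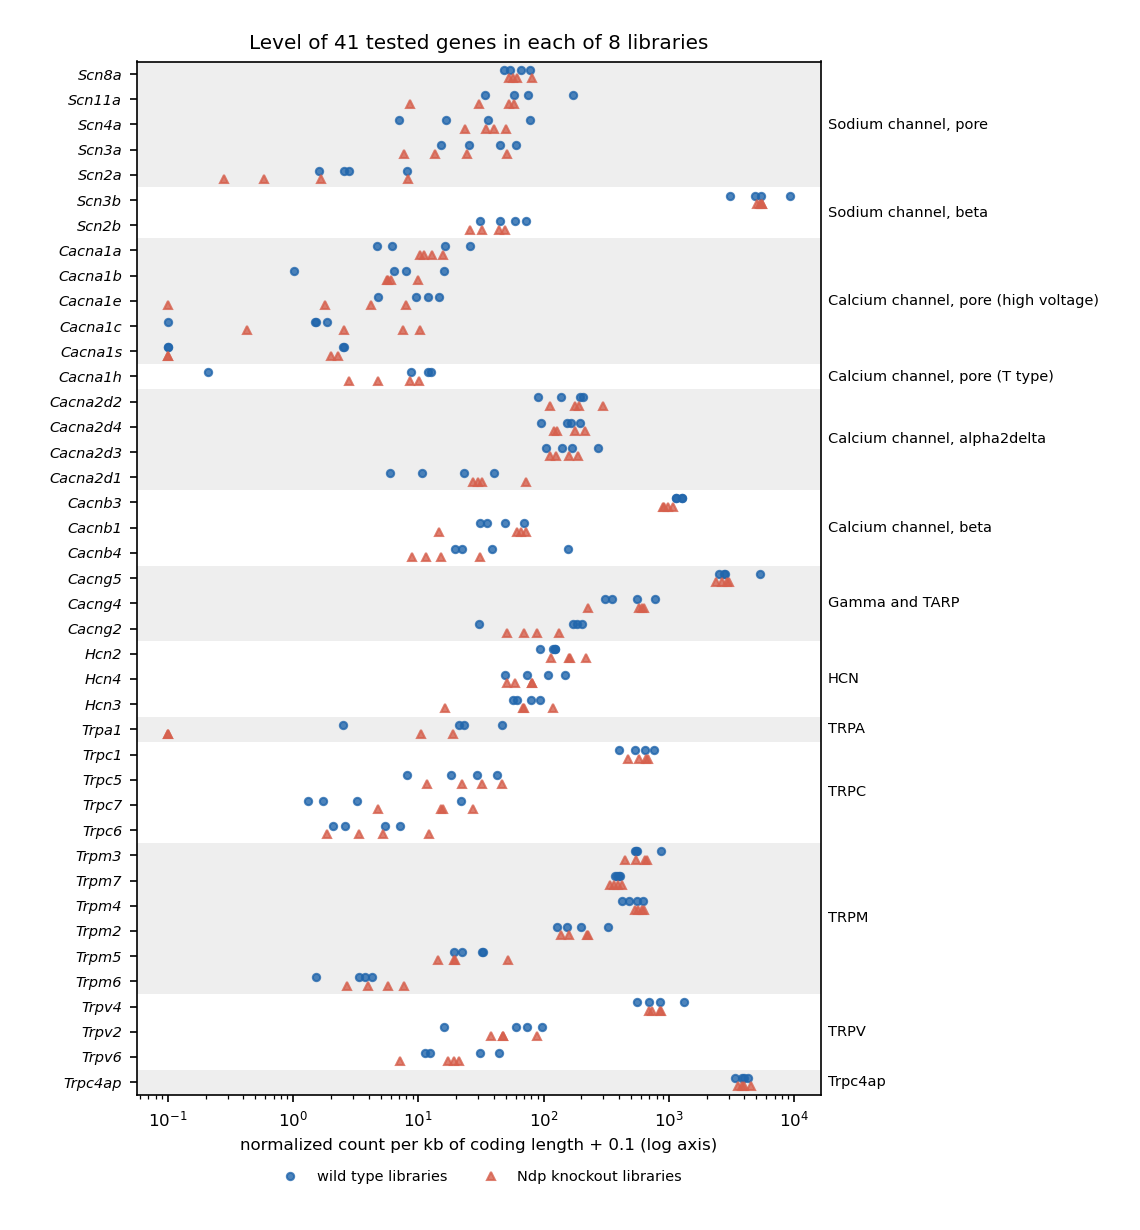
Level of 41 tested genes in each library, as normalized count per kb of coding length plus 0.1 on a log axis, with wild-type libraries as circles and Ndp knockout libraries as triangles. Scn3b, Cacng5 and Trpc4ap lie to the right of 1000 in all 8 libraries, and a point at 0.1 is a library with no reads.

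No member passed the genotype test after adjustment. With limma on log2(normalized count + 1), adjusted by the Benjamini-Hochberg method over all 18203 genes, 0 of 44 members were called at 0.05, and the same test called 1 gene in all (0.00549% of those tested). Before adjustment 3 members had a p under 0.05, which is 6.82% of 44 against 5.57% of all genes. Among them were Cacnb3 and Cacna1e, both lower in the knockout. Of all genes, 2.47% were lower and 3.10% higher at that p. Counts of all 4 wild-type libraries lay apart from those of all 4 knockout libraries for 2 members, among them Cacnb3 (lower), which is 4.55% of 44 against 3.04% of all genes. The edgeR quasi-likelihood test called 0 members and found 3 with an unadjusted p under 0.05 (among them Cacnb3 and Cacnb4), where 4.55% of all genes had such a p and 0% were called. DESeq2 also called 0 members and found 5 (among them Cacnb3, Cacnb4, Hcn2 and Scn11a), where 6.26% of all genes had such a p and 0.0882% were called.

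The fitted difference was above 0 for 24 members and below 0 for 20, with a median log2 difference of 0.04 against 0.02 over all genes tested. The number of members with an unadjusted p under 0.05 by limma depended on single libraries. It was 1 without wild-type replicate 3 (2.27% of 44, against 6.84% of all genes in that fit) and 5 without wild-type replicate 4 (11.4%, against 5.50%). It was 6 (13.6%) without wild-type replicate 2, where all genes gave 9.37%, and also without knockout replicate 4, where they gave 4.81%.

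**Figure D2:**
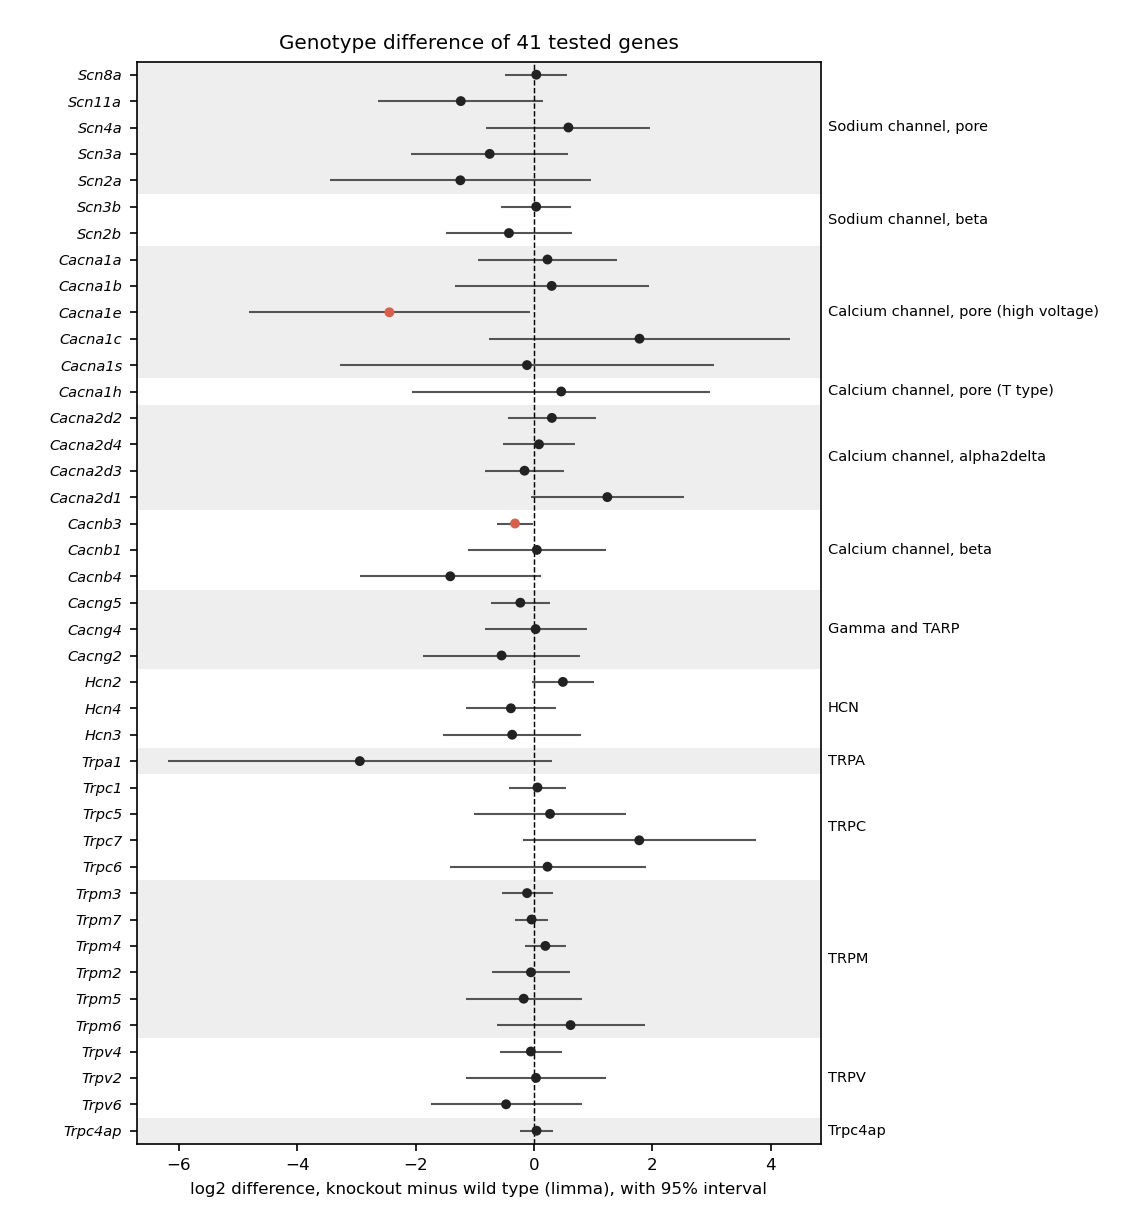
Log2 difference, knockout minus wild type, of 41 tested genes by limma, with horizontal lines for the 95% interval and red points for an unadjusted p under 0.05. Of the genes drawn, the intervals of Cacnb3 and Cacna1e leave out 0.

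Among the pore genes of sodium channels, transcripts of several isoforms were present at similar low levels. Scn8a, the isoform of nodes of Ranvier, had 394, 466, 320.4 and 285 normalized counts in wild-type replicates 1 to 4 and 481, 363, 342 and 312 in the knockout replicates. These groups overlapped throughout, and the log2 difference was 0.039 ± 0.24 (SE, limma; adjusted p = 0.997). Scn11a, an isoform known from pain-sensing neurons, had 304, 394, 909.9 and 180.2 in wild type against 160.2, 281, 45.1 and 307 in the knockout. Its wild-type mean rested on replicate 3: it was 447 with that library and 293 without it, and the log2 difference over all libraries was -1.24 ± 0.63 (SE, limma; adjusted p = 0.908). That difference was -0.81 without wild-type replicate 3 and -0.64 without knockout replicate 3. The skeletal muscle isoform Scn4a, the embryonic brain isoform Scn3a and the brain isoform Scn2a had log2 differences of 0.58, -0.75 and -1.25. Each of these 3 varied widely within a genotype, Scn4a for example from 38.0 to 426 normalized counts among the wild-type libraries.

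Scn8a and Scn11a together made up most of the level of the pore genes per kb of coding length in wild type. Scn8a held 30.6% ± 11.7 of the summed level in wild type and 33.6% ± 6.78 in the knockout (n = 4 each, SD). Scn11a held 33.8% ± 6.99 and 19.6% ± 11.9, and its lowest share was 5.09% in knockout replicate 3. Shares of Scn8a and of Scn11a overlapped between the genotypes.

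Scn1a, Scn9a and Scn10a, which encode sodium channel pores of the brain (Scn1a) and of sensory neurons (Scn9a and Scn10a), had no reads in any wild-type library. Scn1a (ENSMUSG00000064329, chr2:66270778-66440840 in mm10, minus strand) had 0, 52.0, 14.4 and 37.4 normalized counts in knockout replicates 1 to 4. Its 103 reads came from 3 knockout libraries, so it missed the minimum of 4 libraries and was not tested in the main comparison. Against 3 reads over the whole wild-type group, its observed knockout mean was 36.2-fold higher. That ratio allows for counting error in the wild-type 0 only, not for error in the knockout mean. The authors' deposited table gives Scn1a an adjusted p of 0.0977, above 0.05. Scn9a had reads in knockout replicates 2 and 4 (14.0-fold by the same ratio) and Scn10a in knockout replicate 4 only (6.90-fold). The TRP genes Trpc2 and Trpv1 also had no wild-type reads, with 30 reads in 2 knockout libraries and 13 reads in 1. No member had reads in wild type while at 0 in all knockout libraries. The share of all genes of the deposited table with reads in 1 genotype only was not counted. Whether this pattern is particular to channel genes was therefore not tested. These 5 genes were singled out after their values were seen, and knockout replicate 1 held reads of Trpv1 but of none of the other 4.

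The beta subunits of sodium channels are cell adhesion proteins that also change channel gating. Scn3b was similar in both genotypes in its mean, 3649 ± 1664 and 3474 ± 163 (n = 4 each, SD), but the wild-type libraries ran from 1993 to 5951 while the knockout libraries stayed within 3244 to 3603. The log2 difference of Scn3b was 0.037 ± 0.27 (SE, limma; adjusted p = 0.997). Scn2b was scarce, at 20.1 to 46.5 in wild type and 16.5 to 31.4 in the knockout.

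Pore genes of high-voltage-activated calcium channels among the members had levels of 12.8 normalized counts per kb of coding length (Cacna1a) or less. Cacna1a, the pore of P/Q-type channels, had 93.6 ± 70.4 and 88.1 ± 17.0 normalized counts in the wild-type and knockout groups, and Cacna1b, the pore of N-type channels, 54.1 ± 43.5 and 47.0 ± 14.4 (n = 4 each, SD). Both varied more between wild-type libraries than between knockout libraries, Cacna1b from 6.34 to 111 in wild type. Cacna1d, the pore gene set aside by the rule, had 4469 ± 1215 and 4819.8 ± 1118 normalized counts (n = 4 each, SD). The difference for Cacna1d was 0.11 ± 0.23 on the log2 scale (SE, limma; adjusted p = 0.988).

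Cacna1e (ENSMUSG00000004110, chr1:154390731-154884501, minus strand) encodes the pore of R-type channels. It had 64.4, 31.9, 98.2 and 81.4 normalized counts in wild-type replicates 1 to 4 and 11.6, 0, 28.0 and 53.9 in the knockout replicates. The groups overlapped, since knockout replicate 4 exceeded wild-type replicate 2, and knockout replicate 2 had no reads. The log2 difference was -2.45 ± 1.07 (SE). The limma p was 0.0443 before adjustment and 0.895 after it. The log2 difference was -1.25 without knockout replicate 2, and edgeR gave -1.57 with an unadjusted p of 0.130. Cacna1c, the cardiac L-type pore, had 9.50, 0, 11.7 and 9.30 in wild type against 67.5, 50.02, 16.2 and 2.2 in the knockout, with a log2 difference of 1.78 ± 1.15 (SE, limma; adjusted p = 0.927). The difference of Cacna1c was 0.91 without wild-type replicate 2, 1.21 without knockout replicate 1 and 2.69 without knockout replicate 4, and 0.49 without both libraries that carry the same date in their titles. Its knockout values were spread from below all but 1 wild-type library to above them all. Cacna1s, the skeletal muscle pore, was at or under 13.7 normalized counts in every library and was at 0 in 4 of 8.

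Of the T-type pore genes, which encode low-voltage-activated calcium channels, Cacna1h had 83.4, 61.2, 0.780 and 88.4 normalized counts in wild type against 19.0, 59.8, 71.3 and 33.0 in the knockout. Wild-type replicate 3 was near 0, and the log2 difference of 0.46 ± 1.14 (SE, limma; adjusted p = 0.991) became -0.90 without it. Cacna1g did not reach the minimum and had its highest value, 50.2, in wild-type replicate 2.

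The alpha2delta subunits, which carry calcium channels to the membrane and are bound by gabapentin in 2 of their isoforms (Cacna2d1 and Cacna2d2), were present together at similar levels. Cacna2d2, Cacna2d3 and Cacna2d4 held 33.5%, 30.6% and 30.3% of the family's summed level per kb of coding length, as means over 8 libraries. Cacna2d1 held 5.68%. Cacna2d2 had 546 ± 189.9 normalized counts in wild type against 677 ± 264 in the knockout, and Cacna2d4 521 ± 145 and 549 ± 148 (n = 4 each, SD). Log2 differences were 0.30 ± 0.34 and 0.084 ± 0.27 (SE, limma; adjusted p = 0.970 and 0.995). Cacna2d1 had the widest difference of the family, with 76.0, 131, 19.5 and 34.9 in wild type against 238, 89.3, 99.2 and 107 in the knockout, and a log2 difference of 1.24 ± 0.59 (SE, limma; adjusted p = 0.903). Wild-type replicate 2 exceeded 3 of the knockout libraries.

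Beta subunits bind the pore inside the cell and promote its surface expression. Cacnb3 (ENSMUSG00000003352, chr15:98630840-98644529, plus strand) had 1647, 1857, 1863 and 1649 normalized counts in wild-type replicates 1 to 4 and 1325, 1560.5, 1430.0 and 1303 in the knockout replicates. All 4 knockout libraries were lower than all 4 wild-type libraries. The means were 1754 ± 123 and 1405 ± 118 (n = 4 each, SD), a log2 difference of -0.32 ± 0.14 with a 95% interval of -0.62 to -0.018. The limma p was 0.0396 before and 0.895 after adjustment, and edgeR and DESeq2 gave unadjusted p-values of 0.0320 and 0.0103. Leaving out 1 library at a time kept the difference between -0.37 and -0.29. The unadjusted limma p then ran from 0.0319 (without wild-type replicate 4) to 0.109 (without knockout replicate 4), so it did not stay under 0.05. Cacnb3 held 92.0% and 93.2% of the summed level per kb of coding length of the 3 beta subunit genes counted here, which do not include Cacnb2.

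Cacnb4, chosen for description after its values were seen, had 245, 30.1, 60.0 and 34.9 in wild type against 48.5, 13.7, 23.5 and 17.6 in the knockout. The wild-type value of replicate 1 stood far above the rest, and the log2 difference was -1.41 ± 0.69 with it and -0.77 without it (SE, limma; adjusted p = 0.903). Exons of Cacnb4 share 1433 bases with A430018G15Rik on the opposite strand, and the library kit does not mark strand, so reads there cannot be assigned to either gene. Cacnb1 had 93.5 ± 35.0 and 108 ± 53.2 normalized counts (n = 4 each, SD), with a log2 difference of 0.047 ± 0.53 (SE, limma; adjusted p = 0.998). Cacnb2, the beta subunit set aside by the rule, had 2867, 3069.9, 3724 and 1916 in wild type against 3951, 3598, 3698 and 3378 in the knockout. Its log2 difference was 0.37 ± 0.19 (SE, limma; adjusted p = 0.908), of the opposite sign to that of Cacnb3.

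**Figure D3:**
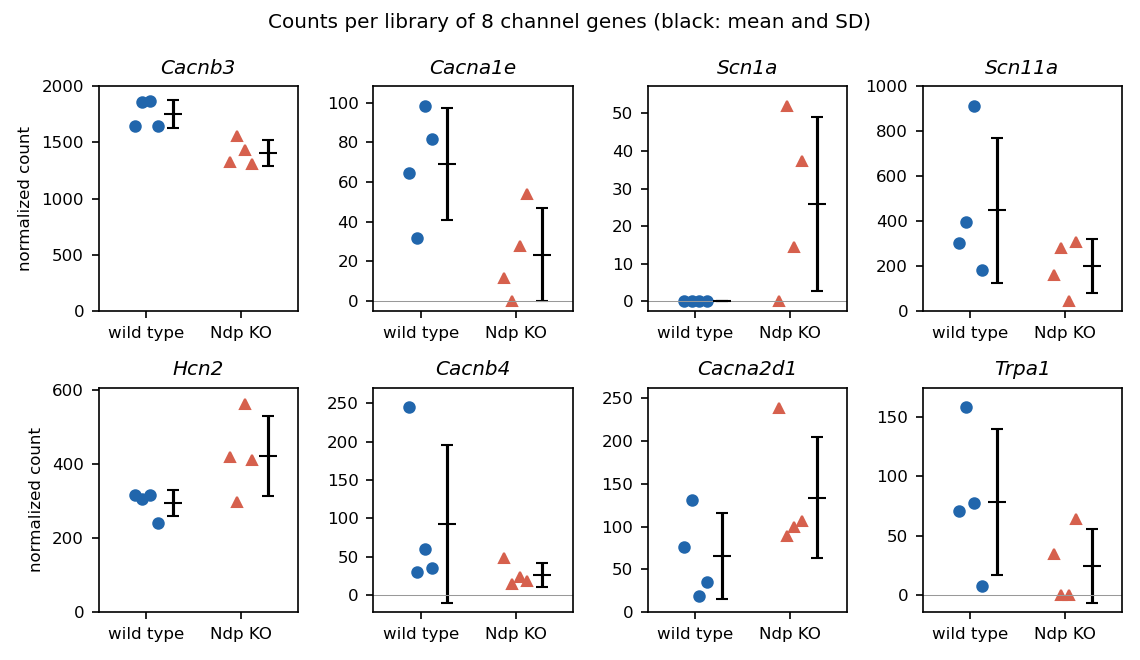
Normalized counts per library of 8 channel genes, with 4 wild-type libraries as circles and 4 Ndp knockout libraries as triangles, and the mean and SD in black beside each group. Of these 8 genes the genotypes lie apart for Cacnb3 only, a single library is far from the rest for Cacnb4 and Scn11a (wild type) and Cacna2d1 (knockout), and SD bars that reach below 0 show spread, not possible counts.

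The gamma gene family holds true calcium channel subunits and TARPs, which are auxiliary proteins of AMPA receptors. Cacng5 made up 81.9% of the family's summed level per kb of coding length and Cacng4 14.4%, as means over 8 libraries. Cacng5 had 2321, 2077, 4425 and 2275 normalized counts in wild type against 2211, 1956, 2391 and 2475 in the knockout, and wild-type replicate 3 was above the other 7 libraries. The log2 difference was -0.23 ± 0.23 with that library and 0.02 without it (SE, limma; adjusted p = 0.959). Cacng4 had 551, 756, 345 and 303 and 220.3, 624, 568 and 603, with knockout replicate 1 lowest of all 8, and a log2 difference of 0.027 ± 0.39 (SE, limma; adjusted p = 0.998). Cacng2, or stargazin, had 142 ± 76.4 and 82.8 ± 33.4 (n = 4 each, SD). Cacng1, Cacng6, Cacng7 and Cacng8 did not reach the minimum.

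Neighbouring members differed widely in level per kb of coding length. Gaps of at most 200 kb joined 19 members into 8 groups, as described from the deposited coordinates after the levels were known. On chromosome 11 (chr11:107703218-107915055, mm10), Cacng1, Cacng4 and Cacng5 lie in a row on the minus strand with mean levels of 5.72, 506 and 3050.0 normalized counts per kb of coding length over 8 libraries. The 3 genes of the other gamma group, Cacng7, Cacng8 and Cacng6 at chr7:3332955-3435667, were all under the minimum. Scn1a and Scn9a, both without wild-type reads, are neighbours on chromosome 2 (chr2:66270778-66634962), and knockout replicates 2 and 4 held reads of both. Cacna1c and Cacna2d4 lie side by side on chromosome 6 with means of 3.12 and 156.

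**Figure D4:**
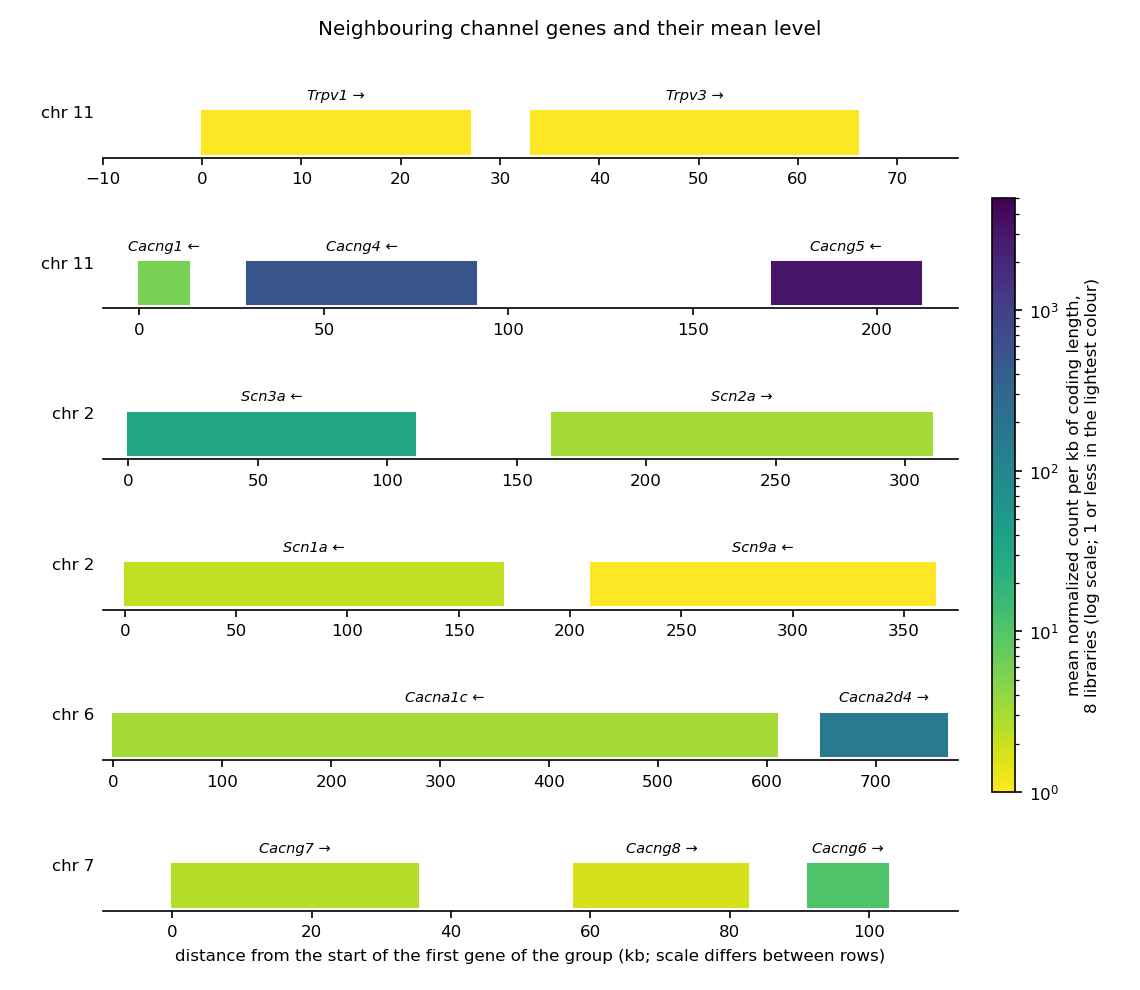
Groups of neighbouring member genes, drawn to scale as distance in kb from the start of the first gene of each group, with arrows for the strand and colour for the mean normalized count per kb of coding length over 8 libraries on a log scale. Cacng5 is the darkest, at a mean of 3050.0, and 6 of the 8 groups are drawn.

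Of the HCN genes, Hcn2, Hcn4 and Hcn3 had reads in all 8 libraries. Hcn2 had 317, 307, 317 and 243 normalized counts in wild-type replicates 1 to 4 and 419.6, 298, 563 and 412 in the knockout replicates. Only knockout replicate 2 lay within the range of wild type, and the log2 difference was 0.49 ± 0.24 (SE). The limma p was 0.0669 before adjustment and 0.903 after it. Hcn4, the main pacemaker isoform of the heart, had 342 ± 155 and 244 ± 54.6 (n = 4 each, SD) with a log2 difference of -0.39 ± 0.35 (SE, limma; adjusted p = 0.95). Hcn3 ran from 133 to 218 in wild type and from 37.9 to 275 in the knockout, and it shares 711 exonic bases with Pklr on the opposite strand.

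**Figure D5:**
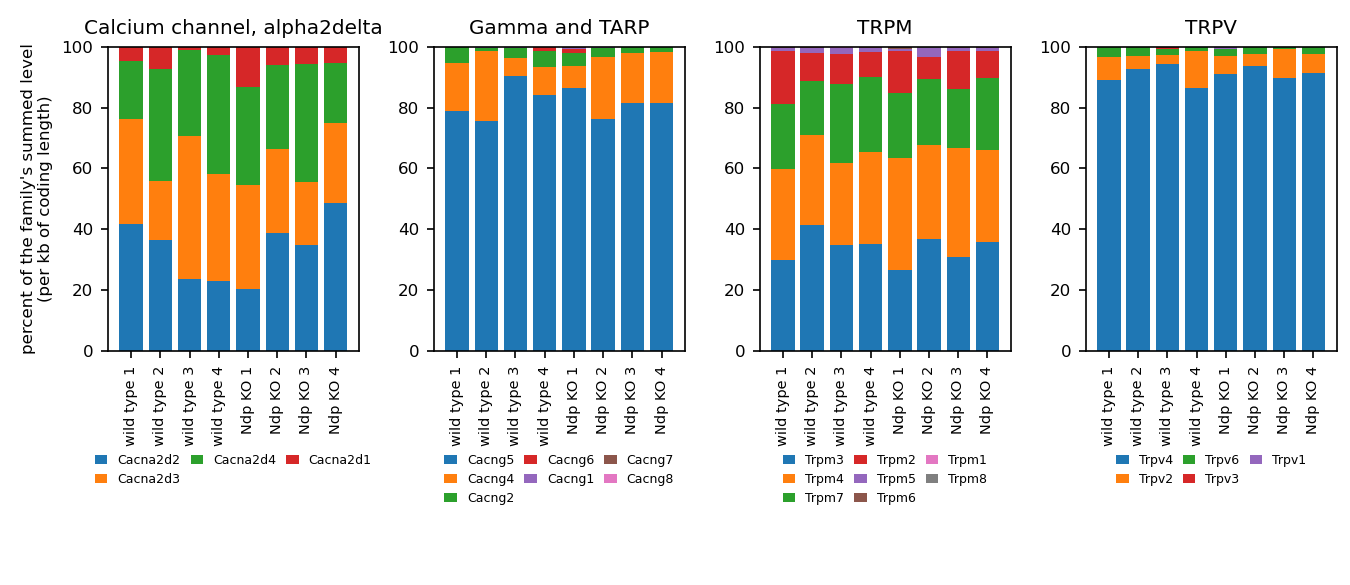
Share of each gene in the summed level of its family per library, in percent, per kb of coding length, for alpha2delta subunits, gamma and TARP genes, TRPM and TRPV genes. Cacng5 and Trpv4 held most of the level of their families in every library, while Trpm3, Trpm4 and Trpm7 together held most of the TRPM level.

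Among TRP genes 1 member dominated the TRPC and TRPV families, whereas the TRPM level was shared. Trpc1, which forms channels with other TRPC subunits, held 94.4% ± 2.10 of the TRPC level per kb of coding length in wild type and 90.9% ± 2.24 in the knockout (n = 4 each, SD). Its normalized counts were 1416 ± 373 and 1449 ± 239 (n = 4 each, SD), with a log2 difference of 0.059 ± 0.22 (SE, limma; adjusted p = 0.995). Per kb of coding length Trpc5 was at 26.1 where Trpc1 was at 590.2, and its normalized counts were 71.1 ± 43.0 and 81.9 ± 43.2 (n = 4 each, SD; limma log2 difference 0.27). Trpc7, of the diacylglycerol-gated TRPC group, had 4.22, 56.6, 3.12 and 8.14 in wild type against 70.6, 39.2, 40.6 and 12.1 in the knockout. Wild-type replicate 2 was second highest of all 8 libraries, and the log2 difference was 1.78 ± 0.89 (SE, limma; adjusted p = 0.903). Trpc7 passed the minimum through the 4 knockout libraries and that one. Trpc2 did not reach the minimum, and it shares 2874 exonic bases with the overlapping genes Xntrpc and Xndc1.

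Trpv4 held 90.7% of the TRPV level in wild type and 91.5% in the knockout. It had 2227, 3433, 1454 and 1828 normalized counts in wild type against 1919, 2272, 2214 and 1815 in the knockout. The knockout libraries fell inside the wild-type range, and the log2 difference was -0.054 ± 0.24 (SE, limma; adjusted p = 0.996). Trpv2 had 139.9 ± 77.5 and 125 ± 51.5 (n = 4 each, SD), with a log2 difference of 0.033 ± 0.54 (SE, limma; adjusted p = 0.998). The epithelial calcium channel Trpv6 had 56.7 ± 36.5 and 37.0 ± 14.3 (n = 4 each, SD). The heat-activated channels Trpv1 and Trpv3 did not reach the minimum.

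Trpm3, Trpm4 and Trpm7 held 33.9%, 31.3% and 22.0% of the TRPM level per kb of coding length over 8 libraries, and Trpm2 10.9%. Trpm3, a channel activated by steroids and heat, had 3274 ± 822 and 2994 ± 541 normalized counts (n = 4 each, SD), with wild-type replicate 2 highest at 4505. Trpm7, a channel fused to a kinase and needed for magnesium balance, varied little between libraries, at 2230.0, 2069, 2261 and 2157 in wild type against 2021, 2214, 1910.0 and 2349 in the knockout. Log2 differences were -0.12 ± 0.20 and -0.041 ± 0.13 (SE, limma; adjusted p = 0.987 and 0.995), and the 95% interval for Trpm7 was -0.33 to 0.24. The calcium-activated channels Trpm4 and Trpm5, the oxidant-activated channel Trpm2 and the magnesium channel Trpm6 had log2 differences of 0.19, -0.17, -0.052 and 0.62, with adjusted limma p-values of 0.942, 0.992, 0.997 and 0.954. Trpm1 and the cold receptor Trpm8 did not reach the minimum.

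Trpa1, the irritant receptor, had 70.7, 158, 77.2 and 8.14 normalized counts in wild type against 34.8, 0, 0 and 63.8 in the knockout. Knockout replicates 2 and 3 had no reads, yet the other knockout libraries lay above wild-type replicate 4. The log2 difference was -2.94 ± 1.47 (SE). The limma p was 0.0709 before adjustment and 0.903 after it. Trpc4ap had 9231 ± 948 and 9504 ± 935 normalized counts (n = 4 each, SD) and a log2 difference of 0.043 ± 0.13 (SE, limma; adjusted p = 0.995).

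Genes that regulate these channels were read from lists alongside the members, and none was called by limma, edgeR or DESeq2. Of 10 sodium channel regulators 6 were fitted higher and 4 lower, of 12 tested calcium channel regulators 7 higher and 5 lower, of 3 HCN regulators 2 higher and 1 lower, and of 10 tested genes of other TRP families and store-operated entry 7 higher and 3 lower. Unadjusted p-values under 0.05 by limma were found for 5 of these 35 genes (14.3%, against 5.57% of all genes), and 3 of the 35 did not overlap between genotypes (8.57%, against 3.04%). The lists were chosen with earlier results of these data known, so these higher shares are not evidence about channel regulators. Rims1 is in both counts, although it passed the minimum through the knockout libraries alone. Fgf11, an intracellular partner of sodium channels, had 435, 385, 607 and 527 normalized counts in wild type against 307, 198, 210.2 and 320.1 in the knockout. Unc79, a subunit of the sodium leak channel complex, had 379, 381, 384 and 307 and 300.5, 254, 189 and 173. For both genes the 4 knockout libraries were all lower than the 4 wild-type ones, with log2 differences of -0.93 ± 0.25 and -0.69 ± 0.24 (SE, limma; adjusted p = 0.895 and 0.895). Rims1, an active-zone protein that binds calcium channel beta subunits, had 2.11, 0, 0 and 5.81 in wild type against 66.4, 11.8, 25.3 and 24.2 in the knockout. Only the 4 knockout libraries of Rims1 reached 10, so its lack of overlap was fixed by the minimum and is not a result. Its log2 difference was 3.68 ± 0.91 (SE, limma; adjusted p = 0.895). Pex5l, the HCN trafficking protein TRIP8b, had 212 ± 64.5 and 111 ± 40.9 (n = 4 each, SD), and Pkd2l1, a TRP-related polycystin channel, 1369.6 ± 706 and 711 ± 408 (n = 4 each, SD). Their log2 differences were -0.97 ± 0.38 and -1.06 ± 0.48 (SE, limma; adjusted p = 0.895 and 0.895).

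Markers of other cell types were read in the same comparison. Of 10 macrophage genes 9 were fitted higher in the knockout. The list's summed levels were 2069 to 4869 in wild type and 3669 to 5781 in the knockout. The endothelial list summed to 84.5 to 113 and 134 to 304, with the untested genes Rgs5 and Kcnj8 included. Of its 4 tested genes 3 were fitted higher, while Pecam1 was fitted lower, with 27.8 ± 11.6 and 20.9 ± 7.41 (n = 4 each, SD). All had few counts, and Emcn varied from 58.8 to 185 among the knockout libraries. The mesenchyme list summed to 14936 to 21840 and 17473 to 26357, and 6 of its 8 genes were fitted higher. Of 8 supporting cell genes 6 were fitted lower, among them Hes5, a Notch target (6400.4 ± 1093 and 3342 ± 1019.8, n = 4 each, SD). Of the 7 tested genes of the neuron list 5 were fitted higher. The summed level of that list was 67510 to 76697 in wild type and 66913 to 72334 in the knockout. It came mostly from Gata3, Nefl and Isl1, which are not particular to neurons, and which cells gave these transcripts was not tested. Nefm was fitted lower (-0.39 ± 0.15) and Snap25 higher (0.39 ± 0.18; log2 difference, SE, limma; adjusted p = 0.895 for both). Stmn2, a gene of neuronal microtubule regulation, was highest in knockout replicate 1, at 1742 against 183 to 628 in the other 7 libraries. Prph, a marker of type II spiral ganglion neurons, had reads only in wild-type replicate 1 (21.1) and knockout replicate 2 (9.81). Limma and edgeR called no gene of these lists. DESeq2 called Coch of the mesenchyme list, with a log2 difference of 2.04 (adjusted p = 0.00864), where limma gave 1.84 ± 0.48 (SE; adjusted p = 0.895). On simulated data DESeq2 made more false calls than limma or edgeR, but the spread of those data was set by edgeR estimates. The simulation does not decide whether the call of Coch is right. Of the 8 genes of the endothelial list, 6 were in the deposited table. No gene of these 5 lists that the deposited table held was at 0 in a whole genotype. Tyrp1 of the melanocyte list had reads in wild-type replicate 2 only. The part of these cell types in the values of the channel genes was not tested.

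The median spread of members between libraries of 1 genotype was wider than that of all genes, without matching for level. The median coefficient of variation of the 44 members was 44.6% in wild type and 38.8% in the knockout, against 30.3% and 19.3% over all genes tested. For the 10 members with a mean of 1000 or more it was 21.1% and 9.53%, below the values over all genes. Genes of similar level were not compared. Wild-type replicate 3 had the highest value of 8 libraries for 10 members (22.7% of 44, against 15.9% of all genes) and knockout replicate 1 for 9 (20.5%, against 11.6%). Wild-type replicate 4 was lowest for 10 members (22.7%, against 20.4%).

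Promoter sequence was described for the members with a RefSeq promoter (GRCm38.p6) that starts within 1000 bases of the gene's deposited start, 39 of 59. In the 250 bases before the start, 18 of the 29 such members that passed the minimum held at least 10 CpG dinucleotides (62.1%), and 0 of the 10 that did not pass. Over all genes of the table with such a promoter the shares were 72.0% of 11036 that passed and 24.1% of 1983 that did not. The letters TATAAA, searched on both strands, were found in 1 of the 39 members and in 7.53% of all 13019 promoters. A match or its absence describes only these letters in this window. Cacng5 and Trpv4 are printed as abundant members and Scn1a as the member with the most reads in the knockout and none in wild type. Each is on the minus strand and is written 5′ to 3′ in the direction of transcription, with CG in capitals, at chr11:107915056-107915305, chr5:114658422-114658671 and chr2:66440838-66441087.
Cacng5: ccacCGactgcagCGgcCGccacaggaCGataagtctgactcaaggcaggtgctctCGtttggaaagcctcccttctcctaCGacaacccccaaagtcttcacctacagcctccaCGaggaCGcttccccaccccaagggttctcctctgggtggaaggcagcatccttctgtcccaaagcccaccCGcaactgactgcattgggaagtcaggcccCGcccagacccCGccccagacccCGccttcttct
Trpv4: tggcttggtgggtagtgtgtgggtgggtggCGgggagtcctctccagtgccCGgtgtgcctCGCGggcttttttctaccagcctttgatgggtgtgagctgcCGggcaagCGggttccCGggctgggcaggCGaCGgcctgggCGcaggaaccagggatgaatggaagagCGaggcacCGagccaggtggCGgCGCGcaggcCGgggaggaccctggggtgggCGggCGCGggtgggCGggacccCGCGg
Scn1a: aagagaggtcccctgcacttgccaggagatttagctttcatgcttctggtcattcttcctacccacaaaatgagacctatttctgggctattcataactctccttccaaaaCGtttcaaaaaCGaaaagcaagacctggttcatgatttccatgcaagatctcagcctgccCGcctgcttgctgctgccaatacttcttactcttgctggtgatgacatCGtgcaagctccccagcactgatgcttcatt
The promoter of Trpv4 held 22 CpG dinucleotides and a GC content of 72%, that of Cacng5 12 and 62%, and that of Scn1a 4 and 46.8%.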

How the data were processed

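The authors deposited 1 table whose signal columns hold normalized counts: the values show 1 divisor, a size factor, for each library. Dividing by each column's smallest step gave whole reads for 100% of 202744 values within 1e-06. These are called reads here, but no label or header says whether they were counted or are rounded estimates. The authors' deposited table also holds their DESeq2 log2 fold changes and p-values, per the file headers. Salmon 0.14.2, bcl2fastq 2.20, DESeq2 1.26.0 and the build mm10 are named in the submitters' processing notes, without roles. The library kit, Nextera XT, does not mark strand, per the labels' protocols.

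Genotype was tested with limma 3.58.1 (R 4.3.3) on log2(normalized count + 1) with an intensity trend, two-sided, adjusted by the Benjamini-Hochberg method over 18203 genes at 0.05. A log2 difference on this scale understates the change of low genes, and a library near 0 can enlarge it. edgeR 4.0.16 and DESeq2 1.42.0 were run on recovered reads as alternatives, with other pseudocounts, filters and scalings and with libraries left out. The scripts were tested on simulated data, with 100 genes changed 2-fold and 100 changed 4-fold among 18203. The spread of each simulated gene was set by edgeR estimates from these libraries. DESeq2 made 69 false calls beside 151 right ones, limma 6 beside 116 and edgeR 6 beside 117.

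The design foresaw coding length from RefSeq proteins. The longest coding sequence of GENCODE M21 (GRCm38) was used instead. It matched all 59 members by gene ID, 57 with identical coordinates. Coordinates are those of the deposited table. Exons of 17 members overlap another gene.

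Full statistics are given for Ndp, for members with an unadjusted p under 0.05 or genotypes that did not overlap, for the 2 members of each family with the highest mean count, and for regulators with such a p. Values of some members are not reported here, though counts over all members include them. Members and lists were chosen with earlier results of these data known. Of the other marker lists, 7 of 8 hair cell, 4 of 7 glia and 2 of 4 tested melanocyte genes were fitted higher in the knockout, and 3 of 4 endothelial genes. Cacna1d and Cacnb2 were both fitted higher. Replicates were numbered in accession order, and the numbers pair nothing. Intervals and floors cover counting error or the spread between libraries only, since amplified reads carry no molecular identifiers.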

Additional observations from a re-analysis of the deposited data

Results flagged for a closer look

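In each genotype's 4 libraries, the highest and lowest counts of 29 genes chosen by rule for full statistics were compared with their nearest neighbours. A gap above Dixon's 95% critical share of the group's whole range marked a value. Other genes described above, such as Cacnb4, Cacna2d1, Cacna1c and Trpc7, were not checked in this way. Among 58 sets of 4 libraries 7 were marked. The critical share marks about 1 in 20 only for independent, normally distributed values. These counts were not log-transformed and the genes share libraries, so the 7 cannot be set against that rate.

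Knockout replicate 1 held 2 of the marked values: 68.5 normalized counts of Cacna1b, above the other knockout libraries, and 220.3 of Cacng4, below them. Wild-type replicate 2 held 2 high values, 2419 of Pkd2l1 and 4505 of Trpm3. Wild-type replicate 3 held a high value of Cacng5, 4425. Wild-type replicate 4 held low values of Hcn2, 243, and of Unc79, 307.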

How the results depend on the processing

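No member was called under any of the 17 alternative settings of the genotype test. The count of members with an unadjusted p under 0.05, which was 3, ran from 1 to 6 with 1 library left out. With a minimum of 5 CPM in 4 libraries only 19 members were tested, and the count was 1 (5.26%, against 4.77% of all genes). With DESeq2 it was 5 (11.4%, against 6.26%). Without both libraries of the shared title date it was 6 (13.6%, against 9.09%). Of 482 values for 29 single genes under these settings, 437 kept their direction and their side of the threshold, and 45, in 16 genes none of which was called, changed sign. With edgeR the log2 differences that changed sign were -0.092 for Cacna1a, -0.21 for Cacna1b, -0.35 for Cacna1h, -0.077 for Scn3b and -0.16 for Trpv2. With DESeq2 the same 5 genes gave -0.088, -0.21, -0.35, -0.075 and -0.16, in that order. Without both libraries of the shared title date Trpv4 gave 0.13. With 1 library left out, the other changes of sign lay in these ranges: -0.16 to 0.66 for Cacna1a, -0.49 to 0.82 for Cacna1b, -0.90 to 0.98 for Cacna1h, -0.13 to 0.22 for Cacna2d4, -0.17 to 0.58 for Cacnb1, -0.17 to 0.39 for Cacng4, -0.35 to 0.018 for Cacng5, -0.22 to 0.31 for Scn3b, -0.088 to 0.16 for Scn8a, -0.11 to 0.20 for Trpc1, -0.024 to 0.096 for Trpc4ap, -0.17 to 0.63 for Trpc5, -0.20 to 0.046 for Trpm3, -0.091 to 0.0082 for Trpm7, -0.52 to 0.34 for Trpv2 and -0.24 to 0.18 for Trpv4. The cause of these changes was not tested. The share of Scn8a in the summed counts of sodium channel pore genes in wild type was 32.1%, and per kb of exonic length, a scale added after the data were seen, 18.6%. No paired analysis was possible because replicate numbers follow accession order and only 1 title date occurs in both genotypes. Genes with few reads had wide intervals, and a member at 0 in a library could hold up to 3 reads' worth of signal there.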

Other observations

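Wild-type replicate 2 and knockout replicate 2 carry the same date in their titles, and no other date occurs in both genotypes. For several members this pair and the other 6 libraries had differences of opposite sign in log2(normalized count + 1), knockout minus wild type. These members were picked after their values were seen, and the pair has 1 library per genotype and no test. Cacng2 differed by 1.53 in the pair and by -1.24 in the other 6 libraries, and Cacnb1 by -2.22 and 0.80. Cacna2d1 differed by -0.55 and 1.84. Cacnb3 kept its sign, with -0.25 and -0.34.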
